A study of Mus musculus with 3 samples.

Results

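Retnla, which encodes the secreted resistin-like molecule alpha (also called FIZZ1 or RELM alpha), was described here with 8 further genes of macrophage activation: Mrc1, Arg1, Chil3, Cd163, Folr2, Fcna, Il4ra and Nos2. These 9 genes, of 36530 features counted, were listed by name and chosen with their measured levels in these tumors in view, so their levels are a description and carry no test. Each gene was followed in the clusters that the depositors named Macrophages, Monocytes1 and Monocytes2, and in the other clusters of 25 in all, across 3 mouse melanomas. The comparison asks which myeloid cells carried these transcripts before treatment with the BRAF inhibitor vemurafenib, in a tumor regressed on the drug, and in a tumor that progressed on it.

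The 3 groups were 1 untreated tumor, 1 regressed tumor and 1 progressed tumor, the latter pair from animals given vemurafenib by mouth. All groups came from C57BL/6J mice carrying Tyr.CreER, a tamoxifen-inducible Cre under the tyrosinase promoter of pigment cells, together with Braf LSL.V600E. Some animals of the model also carry Rosa26 LSL.tdTomato, and 4-OH tamoxifen on the skin starts the tumors. Recombination in this model is directed to pigment cells by Tyr, and the labels give no age, day or dose for the 3 tumors. Single cells were sequenced with droplet-based 3' libraries, which count unique molecular identifiers (UMIs), that is, captured transcript molecules. Levels are given as CPM, the UMIs of a gene per 1000000 UMIs of the summed cells, and come from 3' ends, so they carry no correction for gene length.

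Macrophages change their gene programme with the signals they meet. IL-4 and IL-13 act through a receptor that contains the IL-4 receptor alpha chain (Il4ra) and activate the transcription factor STAT6, and in mice this induces Retnla, Chil3, Arg1 and Mrc1, a state called alternative activation. Interferon gamma and bacterial products induce Nos2, the inducible nitric oxide synthase that competes with arginase 1 for arginine and marks classical activation. Cd163, Folr2 and Fcna, by contrast, are genes of macrophages that live in tissues, together with Lyve1 and Timd4.

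The tables held 4095 cells of the untreated tumor, 3726 of the regressed and 4849 of the progressed, with totals of 22202192, 12413268 and 26948940 UMIs and medians of 4496, 2658 and 4566 UMIs per cell. The regressed tumor stood apart from the other two. It held the female-specific transcript Xist at 0.403 CPM against 1494 and 1735, and Y-linked transcripts at 220.2 against 0.946 and 1.19, so a difference in sex of the animal and the difference in treatment group cannot be told apart. Its haemoglobin transcripts made up 3.96% of UMIs, against 0.272% and 0.00848%. Cell identifiers in the tables are running numbers, so barcodes shared between libraries could not be counted. With 1 tumor per group there was no replicate check and nothing was tested. Every interval is an exact 95% interval that covers counting error only.

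The labels were set beside marker genes. Macrophages held all 9 macrophage markers (among them Adgre1, Csf1r, Cd68, C1qa, C1qb, C1qc, Fcgr1 and Mertk) in each tumor, at a summed level of 16764, 17022 and 22856 CPM in untreated, regressed and progressed order, the order used throughout. Monocytes1 led in the 7 monocyte markers, among them Ly6c2, Ccr2 and Plac8, at 6792, 5085 and 10419 CPM. Monocytes2 was the mixed one. It held all 10 dendritic or Langerhans cell markers, among them Flt3, Cd207 and Epcam, at 1387, 1126 and 1337 CPM, where Macrophages had 92.6, 81.7 and 76.7, and it held the monocyte markers at 2836, 2158 and 1895. Its name therefore rests on mixed markers and is used here only as the depositors' label.

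Retnla was abundant in myeloid cells of the untreated and the progressed tumor and nearly missing from the regressed one. In Macrophages, 312 cells of the untreated tumor held 3981 Retnla UMIs, or 3290.1 CPM (interval 3189 to 3394). The 143 Macrophages of the regressed tumor held 1 UMI, or 3.71 CPM (0.094 to 20.7). The 339 of the progressed tumor held 4874, or 3852 CPM (3744 to 3961). The untreated and progressed levels were thus of like size and the regressed level was apart from both. On the log2 scale the regressed over untreated ratio was -9.79 (-15.10 to -7.31), the progressed over regressed ratio 10.02 (7.54 to 15.32) and the progressed over untreated ratio 0.23 (0.17 to 0.29). In bulk sums such as these, fewer cells carrying a transcript and less transcript per cell cannot be told apart, so the counts per cell are given further on.

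The Monocytes2 cluster showed the same gap with a larger span. Retnla reached 2567 CPM in its 69 untreated cells (1096 UMIs, 2417 to 2724). None was counted in its 57 regressed cells, where 3 UMIs would have been 6.90 CPM. In its 161 progressed cells it reached 14771 CPM (14955 UMIs, 14535 to 15009), so that 70.1% of all Retnla UMIs of the progressed tumor lay in this small cluster. The progressed over untreated log2 ratio was 2.52 (2.44 to 2.61), and against the floor of 3 UMIs over the group the regressed tumor was at least 372-fold lower than the untreated one. Monocytes1 held far less Retnla, at 110.3 CPM (124 UMIs), none and 52.3 CPM (13 UMIs).

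Elsewhere, Retnla lay at a low level in each tumor. Over the other clusters with at least 20 cells, the untreated tumor had a median of 17.8 CPM in 15 clusters, from 0 in Stroma8 to 107 in MitoHigh on 2 UMIs, with Neutrophils at 26.3 (18.8 to 35.8) apart from Stroma2 at 13.9 (11.1 to 17.3), and the progressed tumor 62.3 in 14 clusters, the latter between 49.5 and 94.6. The regressed tumor held 8 Retnla UMIs in the 3329 cells of its other clusters, and 10 of those 15 clusters held none. No cell of these clusters held more than 4, 1 and 5 UMIs. Cell types that should lack the gene served as a reference for free RNA in the droplets. After thinning each cell to 1000 UMIs, 2.56%, 0% and 7.32% of the T and NK cells (NK_T and NK_T_Cytolytic, median depths 3380.5, 2737.5 and 3122 UMIs) had a Retnla UMI, as had 1.77%, 0% and 5.79% of the cells of Stroma1 to Stroma10 (4654, 3151.5 and 4388 UMIs). In Macrophages the thinned shares were 12.5% (9 to 16.8), 0% of 92 cells (which allows up to 3.26%) and 21.1% (16.8 to 25.9), at median depths of 3429, 1388 and 3450 UMIs. These shares were higher than in both reference types in the untreated and progressed tumors and not in the regressed one. In the untreated and progressed tumors the Macrophage intervals lay above those of stroma. They overlapped those of the T and NK cells, of which these tumors held only 40 and 41. The unthinned shares of Macrophages were 18.6%, 0.699% and 35.1%. In Monocytes1 the thinned shares of 3.65%, 0% and 4.08% had intervals (1.59 to 7.07 untreated, 0.498 to 14 progressed) that overlapped those of both reference types, so no level above background could be told at this depth, apart from 3 untreated cells described below.

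**Figure D1:**
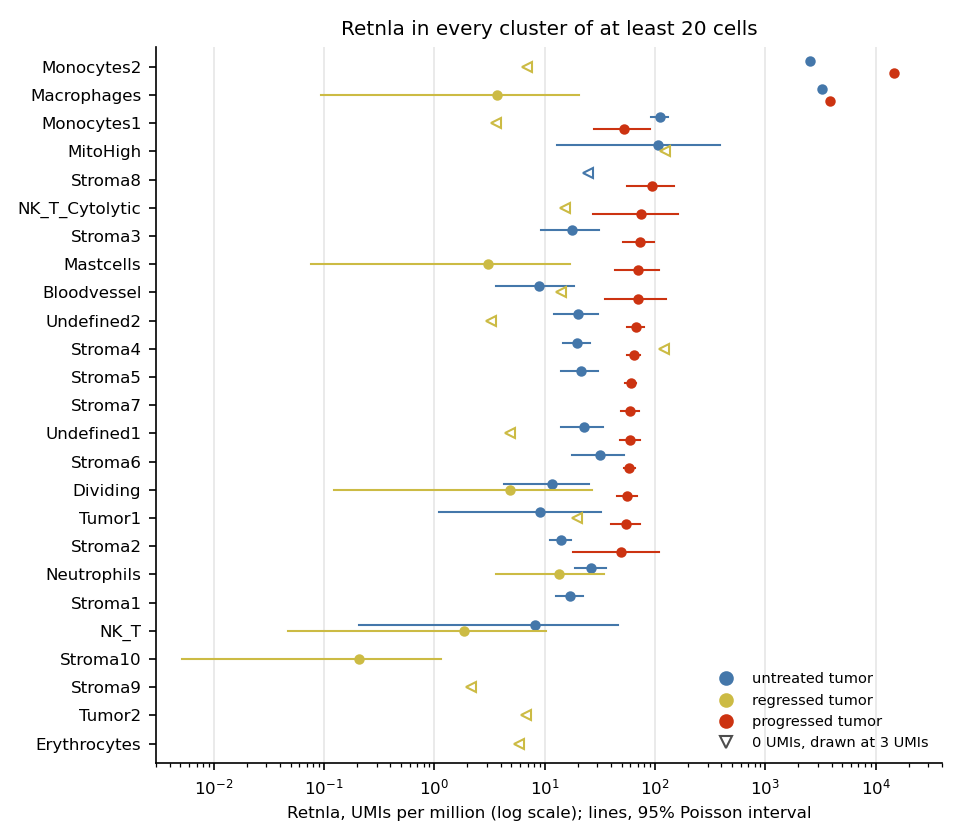
Retnla level in each cluster and tumor, in CPM on a log axis; points are clusters with at least 20 cells in that tumor and bars are exact 95% Poisson intervals. Macrophages (3290.1 and 3852) and Monocytes2 (2567 and 14771) stand far to the right in the untreated and progressed tumors, while the regressed tumor lies at or near 0 in every cluster.

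The sequence around annotated starts of the member genes was read from RefSeq windows of the GRCm38.p6 build, each holding 250 bases before and 50 after a start. 7 of the 9 members had a window. The Retnla gene (Entrez 57262) lies at chr16:48842609-48844461, Chil3 (12655) at chr3:106147554-106167564 and Fcna (14133) at chr2:25624665-25635440. Their windows are shown because Retnla and Chil3 are the secreted products most used as marks of IL-4 signalling, and Fcna is the member whose share differed most between Macrophages with and without Retnla. The windows are chr16:48842359-48842658 on the plus strand, chr3:106167515-106167814 on the minus strand and chr2:25627925-25628224 on the minus strand. The Fcna window lies within the span of the gene given above, so its start is not the outer end of that span. Each window is written 5′ to 3′ along its own strand, with motif matches in capitals.
Retnla: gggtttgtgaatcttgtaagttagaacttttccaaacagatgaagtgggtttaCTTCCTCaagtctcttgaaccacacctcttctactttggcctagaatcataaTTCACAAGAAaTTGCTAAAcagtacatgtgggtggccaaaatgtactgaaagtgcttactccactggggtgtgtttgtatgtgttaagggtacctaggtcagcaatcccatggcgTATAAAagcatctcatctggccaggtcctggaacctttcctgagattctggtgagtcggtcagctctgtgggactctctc
Chil3: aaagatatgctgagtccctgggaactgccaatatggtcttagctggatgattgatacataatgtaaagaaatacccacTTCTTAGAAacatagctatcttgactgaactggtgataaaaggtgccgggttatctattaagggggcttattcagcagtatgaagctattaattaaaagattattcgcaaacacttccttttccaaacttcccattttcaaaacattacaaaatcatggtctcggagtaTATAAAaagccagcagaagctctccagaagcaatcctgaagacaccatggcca
Fcna: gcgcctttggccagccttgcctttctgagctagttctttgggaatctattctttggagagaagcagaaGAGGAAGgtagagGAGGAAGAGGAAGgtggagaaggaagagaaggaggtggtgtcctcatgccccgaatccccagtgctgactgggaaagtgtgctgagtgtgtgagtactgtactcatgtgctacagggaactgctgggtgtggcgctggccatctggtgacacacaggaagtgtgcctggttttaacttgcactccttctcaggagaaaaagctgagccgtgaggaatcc

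5 short motifs were searched on both strands. The Retnla window held TTCNNNNGAA, the spacing that STAT6 prefers, as TTCACAAGAA, which begins 145 bases before the start; 6.95% of all 32851 windows hold this motif. It also held TTGCNNAA of the C/EBP type as TTGCTAAA, 134 bases before the start and not overlapping the first (10.8% of windows), GAGGAAG of the PU.1 type in reverse as CTTCCTC, 197 bases before (13.6%), and TATAAA 30 bases before (13.6%). The Chil3 window held the shorter STAT spacing TTCNNNGAA as TTCTTAGAA, 172 bases before the start (8.30%), and TATAAA 3 bases before. The Fcna window held GAGGAAG at 182, 169 and 163 bases before the start, the last pair sharing 1 base, and the Mrc1 window held it at 168 and 36. None of the 5 motifs was found in the windows of Cd163, Il4ra and Folr2. A match is a stretch of letters and not a measured binding site.

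Within the clusters, Retnla was held by few cells at high counts. In untreated Macrophages 254 of 312 cells had no Retnla UMI, 26 had 1, and 27 cells had 10 or more and carried 99.0% of the cluster's Retnla UMIs. The highest cell held 592, which was 16.3% of that cell's UMIs, and 5 cells together held at least 50% of the total. In progressed Macrophages 220 of 339 cells had none, 56 had 1, and 36 had 10 or more and carried 97.1%, with a highest count of 720. The Retnla-rich cells of the 2 tumors were therefore similar in number, at 8.65% and 10.6% of Macrophages, and in content, with medians of 81 and 78 UMIs. The mark of 10 UMIs was set after the counts were seen; around it, 1 untreated and 5 progressed Macrophages had 5 to 9 UMIs, and 3 cells in each tumor had 10 to 14.

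The cells below the mark differed more between the tumors than those above it. Without the Retnla-rich cells, Macrophages held 38.4 CPM in the untreated tumor (41 UMIs) and 131 in the progressed (142 UMIs), a log2 ratio of 1.78 (1.26 to 2.31) beside medians of 17.8 and 62.3 in the other clusters. In Monocytes2, by contrast, the number of rich cells differed: 8 of 69 untreated cells (11.6%) and 39 of 161 progressed cells (24.2%) had 10 or more UMIs, with medians of 115.5 and 204, and they carried 99.4% and 99.5% of the cluster's Retnla. The highest progressed Monocytes2 cell held 1977 Retnla UMIs, 23.6% of all its UMIs. The next highest cells held 1501, 1245 and 1193, out of 14955 Retnla UMIs in that cluster, so its level rests largely on few cells. In Monocytes1, 3 untreated cells and no progressed cell were rich, the highest with 36 UMIs. Those 3 cells carried 79.0% of the cluster's Retnla in the untreated tumor.

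**Figure D2:**
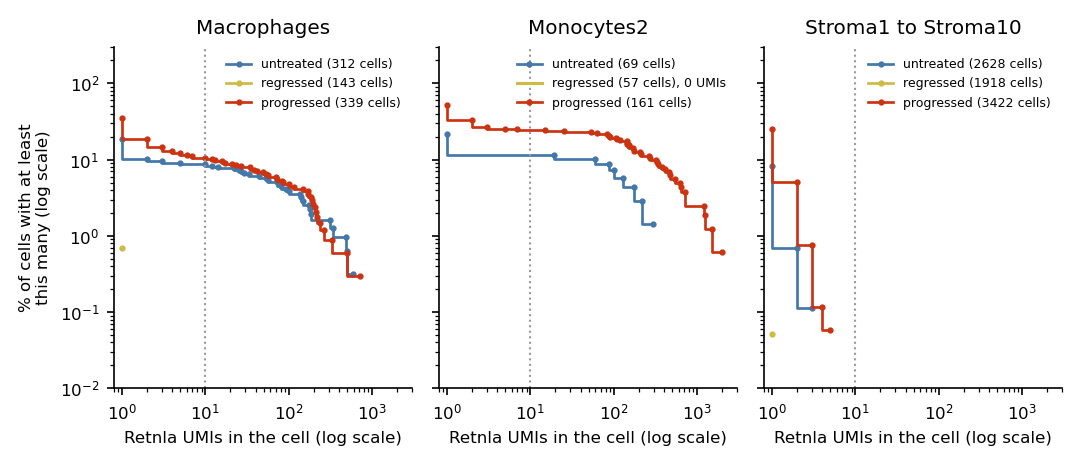
Percent of cells holding at least a given number of Retnla UMIs, both axes logarithmic, for Macrophages and Monocytes2 in each tumor. The untreated and progressed curves run side by side in Macrophages beyond 10 UMIs (8.65% and 10.6% of cells) and apart in Monocytes2 (11.6% and 24.2%), and the regressed tumor reaches 1 UMI in Macrophages and none in Monocytes2.

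Among the other secreted products, Fcna, which encodes ficolin-A, a lectin that can start the complement cascade, kept to Macrophages. It reached 229 CPM there in the untreated tumor (277 UMIs, 203 to 258), 22.3 in the regressed (6 UMIs, 8.17 to 48.5) and 159 in the progressed (201 UMIs, 138 to 182). The regressed level was 10.3-fold below the untreated one (log2 -3.36, -4.82 to -2.22). The Macrophages held 91.1%, 85.7% and 89.3% of each tumor's Fcna, and the thinned shares of cells were 10.5%, 1.09% and 10.5%, where T and NK cells had 2.56%, 0% and 0% and stroma 0.0385%, 0% and 0%. Outside the Macrophages, more than 3 Fcna UMIs were found only in the untreated Bloodvessel cluster (10, all in the same cell) and in Monocytes2 of the untreated (5) and progressed (9) tumors.

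Chil3, the chitinase-like protein Ym1, marked a different cluster from Retnla. It was highest in Monocytes1 in all 3 tumors, at 689 CPM (774 UMIs, 641 to 739), 799 (658 UMIs, 739 to 862) and 667 (166 UMIs, 569.6 to 777), and varied little there: the progressed over untreated log2 ratio was -0.05 (-0.30 to 0.20). The thinned shares of Monocytes1 with a Chil3 UMI were 37%, 31% and 28.6%, far above stroma at 0.154%, 0.866% and 0.0294%. In Macrophages it was low and uneven, at 56.2, 18.6 and 4.74 CPM (68, 5 and 6 UMIs). The 6 neutrophil markers moved in the same order in Macrophages, with a sum of 1031, 735 and 35.6 CPM and Cxcr2 and Retnlg at 0 in the progressed tumor. The part of these cells in the Chil3 level was not tested. Untreated Neutrophils held 152 CPM of Chil3 (231 UMIs), in 5.12% of their cells, and 3 of those cells held at least 50% of it.

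Of the enzymes, Arg1, the arginase that turns arginine into ornithine and urea, was also a gene of Monocytes1. It reached 444 CPM in untreated Monocytes1 (499 UMIs, 406 to 485) and 331 in the regressed tumor (273 UMIs, 293 to 373). In the 53 progressed Monocytes1 only 2 UMIs were found, both in 1 cell, or 8.04 CPM (0.974 to 29). The progressed cells were thus 55.2-fold lower than the untreated ones (log2 -5.79, -8.84 to -3.93) and 41.2-fold lower than the regressed ones (log2 -5.37, -8.42 to -3.50). Thinned shares were 15.5%, 15.2% and 0% of 49 cells, which allows up to 6.12%. A few cells carried most of it, the highest with 122, 44 and 2 UMIs, and 5 untreated and 6 regressed cells held at least 50% of the count. The neutrophil markers moved in the same order in Monocytes1, with a sum of 3309, 912 and 125 CPM, and S100a9, Cxcr2 and Retnlg at 0 in the progressed tumor, and their part in the Arg1 level was not tested. In Macrophages Arg1 was low, at 29.8, 40.8 and 8.69 CPM (36, 11 and 11 UMIs), and 20 of the 36 untreated UMIs lay in 1 cell.

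In the progressed tumor most Arg1 lay in stroma. There Stroma4 had the highest level of all clusters, at 45.5 CPM (167 UMIs, 38.9 to 53), whose interval overlapped that of Stroma2 with 3 UMIs, and Stroma5 had 18.4 (102 UMIs). Stroma1 to Stroma10 together held 6.96, 7.63 and 18.9 CPM, which was 83.4% of the Arg1 UMIs of the progressed tumor against 15.2% and 13.2% in the others. No stromal cell held more than 8 UMIs. Stroma4 also led among stromal clusters of the untreated tumor, at 23.3 CPM (60 UMIs), 5.12-fold above Stroma5, whereas Retnla in the same pair differed 1.07-fold.

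Nos2, the counterpart of Arg1 in arginine use, was scarce, with 57 UMIs in 50 of all 12670 cells. None of the 312, 143 and 339 Macrophages held one, which allows up to 2.48, 11.1 and 2.37 CPM. Of the 57 UMIs, 42 lay in 37 untreated Neutrophils, at 27.6 CPM (19.9 to 37.3) and 9.46% of cells. Untreated Monocytes1 had 6. A ratio of Nos2 to the alternative activation genes in Macrophages was therefore not measurable at this depth.

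Mrc1, the mannose receptor CD206, was the steadiest member in Macrophages. Its level was 1032 CPM in the untreated tumor (976 to 1091), 924 in the regressed (813 to 1046) and 1035 in the progressed (979.9 to 1093), and the interval of the log2 ratio held 0 for each pair of tumors (regressed over untreated -0.16, -0.36 to 0.04). Thinned shares of Macrophages with Mrc1 were 58.6%, 60.9% and 63.6%, against 0%, 2.23% and 2.44% of T and NK cells and 0.5%, 0.75% and 0.441% of stroma. The regressed Macrophages thus held Mrc1 as often as the others while nearly lacking Retnla.

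Outside Macrophages, Mrc1 followed a different course. In Monocytes1 it was 48.9 CPM (55 UMIs), 153 (126 UMIs) and 4.02 (1 UMI), and so highest in the regressed tumor and 38.1-fold lower in the progressed one (log2 -5.25, -10.56 to -2.75). The macrophage marker C1qa took the same order in those cells, at 129, 489 and 96.5 CPM, and its part in the Mrc1 level was not tested. In Monocytes2, Mrc1 was 110.1, 43.7 and 247 CPM, lowest in the regressed tumor.

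The remaining scavenger and uptake receptors were close to restricted to Macrophages, and they differed in their course. Cd163, the haemoglobin scavenger receptor, was 187 (163 to 213), 256 (199 to 324) and 161 (139.8 to 185) CPM, with the highest level in the regressed tumor, a log2 ratio of 0.46 over the untreated one (0.04 to 0.85). Its thinned shares of 14.8%, 13% and 11.7% did not show that order. Folr2, the folate receptor beta, was 324 (293 to 358), 108 (72.1 to 155) and 494 (456 to 534) CPM, lowest in the regressed tumor (log2 -1.59, -2.19 to -1.04) and highest in the progressed one. Here the thinned shares, 16.4%, 7.61% and 27.1%, kept the order of the levels. No T or NK cell held Folr2 in any tumor, and stromal shares were 0.115%, 0.0577% and 0.206%. Cd163 in stroma was found in 0.077%, 0.0577% and 0.0588% of thinned cells.

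Il4ra, the receptor chain shared by IL-4 and IL-13, was the most widely spread member. Macrophages held 223 (197 to 251), 111 (75.1 to 159) and 276 (248 to 306) CPM, with thinned shares of 22.7%, 6.52% and 22.3%. The interval of the regressed over untreated log2 ratio was -1.60 to -0.46 and so spans values on either side of a 2-fold difference. Monocytes1 held 124, 129 and 96.5 CPM and was not lower in the regressed tumor than in the untreated one. Neutrophils with 153 and 158 CPM in the untreated and regressed tumors and Stroma8 with 172 and 226 in the untreated and progressed ones were of the same order. In the untreated tumor the interval of Macrophages lay above that of Neutrophils (134 to 173), while Stroma8 on 21 UMIs (107 to 263) overlapped both. No cluster was used as a background for this gene.

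**Figure D3:**
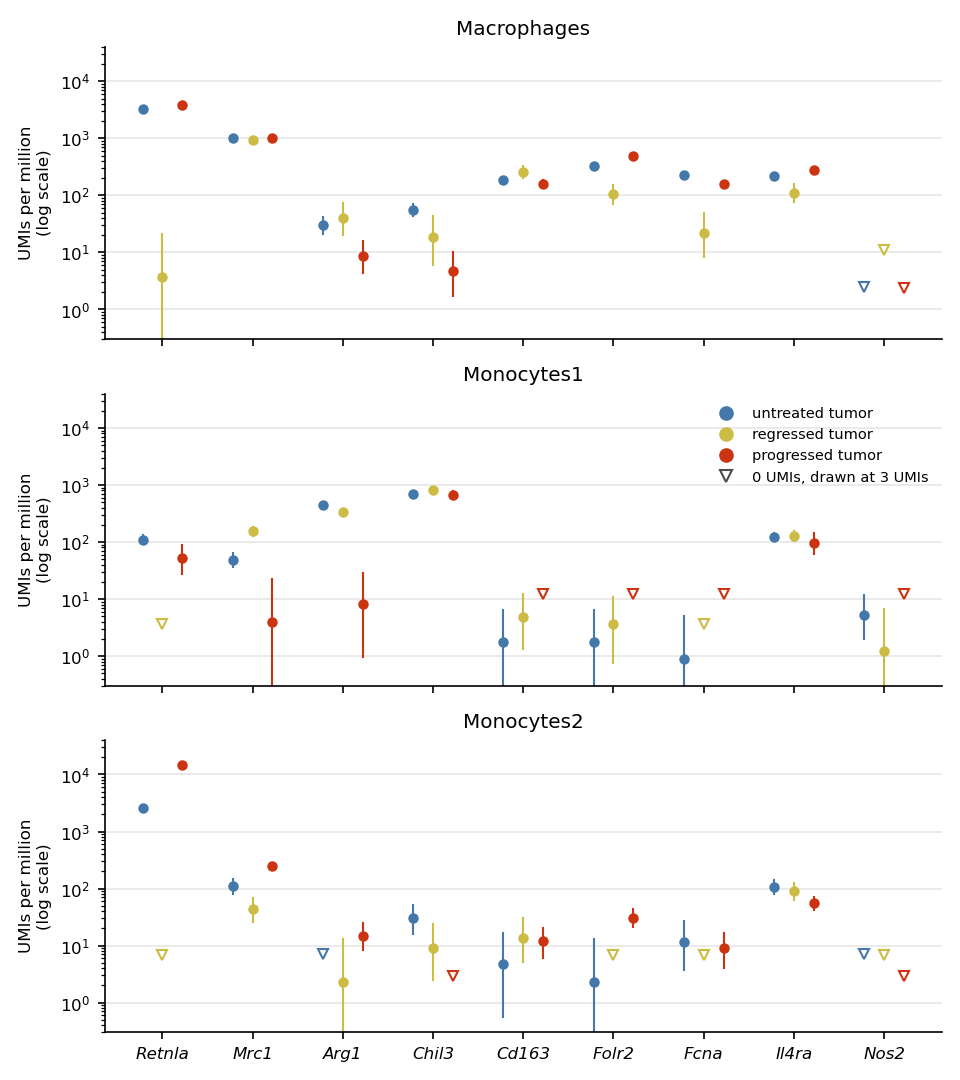
Levels of the 9 members in Macrophages, Monocytes1 and Monocytes2 of each tumor, in CPM on a log axis, with exact 95% Poisson intervals whose lower ends are not drawn below the axis. Retnla, Fcna and Folr2 are lowest in the regressed Macrophages (3.71, 22.3 and 108) while Mrc1 lies between 924 and 1035, and Arg1 and Chil3 lead in Monocytes1.

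How common such differences were among all genes was read from the same sums. In Macrophages, 7584 features with at least 20 UMIs in the regressed and untreated sums together were compared, and a 2-fold difference was counted, with no test. Of these, 7.69% were at least 2-fold higher in the regressed tumor and 10.7% at least 2-fold lower; of the 8 members compared, 0 were higher and 5 were lower (Retnla, Chil3, Folr2, Fcna and Il4ra). For progressed over regressed, 8.89% were higher and 9.05% lower, with 4 of 7 members higher (Retnla, Folr2, Fcna and Il4ra) and 1 lower (Arg1). For progressed over untreated, 3.55% were higher and 4.84% lower, with 0 of 8 members higher and 2 lower (Arg1 and Chil3). Since the members were chosen on these contrasts, nothing is read from the excess over the share of all features.

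In Monocytes1, fewer members had enough counts. For regressed over untreated, 12.5% of 8304 features were at least 2-fold higher and 3.19% lower, with 1 of 5 members higher (Mrc1) and 1 lower (Retnla). For progressed over regressed, 4.54% were higher and 19.0% lower, with 0 of 4 members higher and 2 lower (Mrc1 and Arg1). For progressed over untreated, 6.53% were higher and 10.8% lower, with 0 of 5 higher and 3 lower (Retnla, Mrc1 and Arg1). Without the 3 untreated Retnla-rich cells, Retnla in Monocytes1 was 23.2 CPM untreated and 52.3 progressed, and so not lower. The split of all features into higher and lower depended on the scaling. After scaling by trimmed mean of M values (TMM), the higher and lower percentages for the 3 comparisons were 5.75 and 12.8, 13.5 and 4.88, and 4.20 and 3.62 in Macrophages, and 7.78 and 5.68, 5.68 and 16.2, and 4.80 and 13.7 in Monocytes1, a shift of all log2 ratios by -0.13, 0.24, 0.11, -0.24, 0.10 and -0.14. The members counted past 2-fold were the same under that scaling in all 6 comparisons.

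Next, it was asked which members shared cells with Retnla. Among thinned Macrophages, cells with a Retnla UMI (38 untreated, 70 progressed) were compared with cells without (266 and 262). Fcna was found in 44.7% of the Retnla-positive untreated cells (28.6 to 61.7) and in 5.64% of the negative ones (3.19 to 9.13), and in 35.7% against 3.82% in the progressed tumor. Folr2 followed with 50% against 11.7% and 51.4% against 20.6%. The intervals of the positive and negative cells lay apart in both tumors for Fcna and Folr2. For Mrc1 the shares were 68.4% against 57.1% and 70% against 61.8%, for Cd163 23.7% against 13.5% and 18.6% against 9.92%, and for Il4ra 26.3% against 22.2% and 25.7% against 21.4%, with overlapping intervals in each case. Arg1 and Chil3 were found in 0 of the 38 untreated cells and in 1 and 0 of the 70 progressed ones. Retnla-rich Macrophages had more UMIs in all than cells with 0 or 1 (medians 4858 against 3284.5 untreated, 4908 against 3185.5 progressed), which the thinning to one depth takes away.

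Folr2 and Fcna were also found together when cells were split by Folr2 in place of Retnla. Retnla-positive cells were kept in this split. They made up 38% of Folr2-positive and 7.48% of Folr2-negative untreated Macrophages, and 40% against 14.0% of progressed ones. Fcna was present in 34% of Folr2-positive and 5.91% of Folr2-negative untreated Macrophages, and in 30% against 3.31% of progressed ones. In the regressed tumor 7 thinned Macrophages held Folr2, and 1 of them held Fcna, where 0 of the other 85 did. In Monocytes2, Mrc1 was found in 4 of 8 positive against 8.62% of 58 negative untreated cells and in 35.8% of 53 against 6.80% of 103 progressed cells, with intervals that overlapped in the untreated tumor (15.7 to 84.3 and 2.86 to 19) and lay apart in the progressed one. Folr2 was found there in 7 of 53 positive progressed cells (13.2%, 5.48 to 25.3) and 0 of 103 negative ones, which again lay apart, and in no thinned untreated cell. Arg1 and Chil3, both highest in Monocytes1, had overlapping shares: Chil3 was present in 29.4% of Arg1-positive and 38.4% of Arg1-negative untreated Monocytes1, and in 21.4% against 32.7% of regressed ones.

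**Figure D4:**
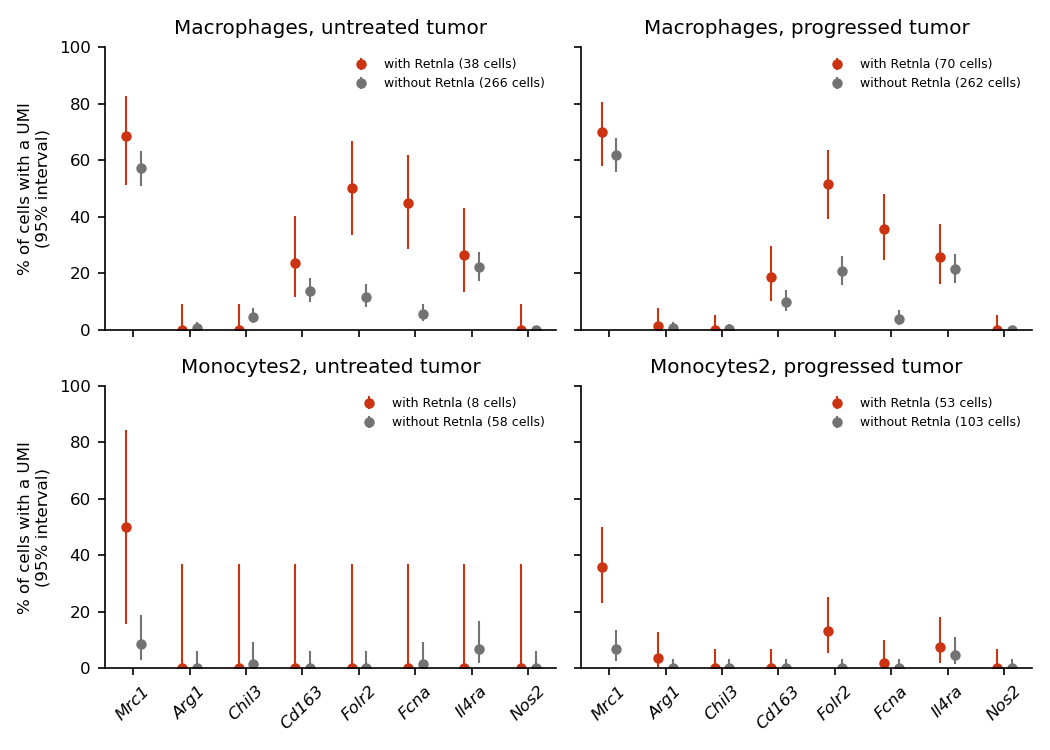
Percent of cells, each thinned to 1000 UMIs, that held a UMI of another member, for cells with and without a Retnla UMI, with exact 95% binomial intervals. In Macrophages the Fcna shares (44.7% against 5.64% untreated, 35.7% against 3.82% progressed) and the Folr2 shares lie apart, and those of Mrc1, Cd163 and Il4ra overlap.

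The Retnla-rich cells of the 2 clusters were not alike in the rest of their genes. In Macrophages, all 9 macrophage markers were found in rich cells, at a sum of 20618 against 16114 CPM in cells with 0 or 1 Retnla UMI (untreated) and 24191 against 22772 (progressed). Fibroblast markers were also higher in untreated rich cells, at a sum of 5301 against 2891 CPM with 5 of 6 found and Fap at 0, and not in progressed ones, at 3405 against 3617 with all 6 found, and their part in the genes listed next was not tested. Ranked by the smaller of the 2 tumors' differences among 4601 features, the genes higher in rich cells were led by Fcna, at 1470.1 against 52.7 CPM untreated and 744 against 56.2 progressed, followed by Ifitm6, Cd209d, Lyve1, Ccl6, Gda, Folr2, Ednrb, Ifi27l2a and Cd209f. Lyve1, the hyaluronan receptor of perivascular macrophages, was 1028 against 83.3 and 549.9 against 69.5. The genes lower in rich cells included Il1b, the inflammatory cytokine, at 86.9 against 1047 and 0 against 419.8, Cx3cr1, the fractalkine receptor, at 72.4 against 648 and 72.2 against 722, and Tmem119 at 0 against 135 and 5.55 against 129. Ccl24, an eosinophil-attracting chemokine induced by IL-4, was 1687 against 48.8 in untreated but 844 against 797 in progressed Macrophages, where the interval of its log2 ratio held 0.

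In Monocytes2 the rich cells differed from the rest of the cluster in cell type markers. Dendritic or Langerhans markers summed to 24.8 CPM in the 8 rich and 1533 in the 61 poor untreated cells, and to 234 against 1842 in the 39 rich and 108 poor progressed cells, in which Flt3, Ccr7, Xcr1, Clec9a and H2-Oa were at 0 in the rich cells. Macrophage markers went the other way, at 2556 against 1141 and 7743 against 857, with C1qb at 844 against 197 and 3093 against 156. Monocyte markers were 5931 against 2521 and 4347 against 1049.6. The leading genes were Ccl24, at 1861 against 2.59 and 782 against 1.61, then Fn1, Lpl, Lyz1, Ccl6, Gda, Cebpb, Pltp, Ctsd and Sdc3. Ccl17 and Ccl22, chemokines listed with Ccl24 among the other alternative activation genes, were lower in rich cells. Ccl17 was 0 against 511 and 129 against 1717, and Ccl22, a chemokine of dendritic cells, was 0 against 591 and 0 against 174. The whole list summed to 4095 against 2150 CPM in the untreated tumor and 2375 against 3878 in the progressed one. Cd207, the langerin of Langerhans cells, was 0 against 420.2 and 4.03 against 444. Ccl6 and Gda were among the 10 leading genes of rich cells in both clusters, and Fcna and Lyve1 were among those of Macrophages. In Monocytes2, Fcna had 5 untreated and 9 progressed UMIs, under the minimum of 30 UMIs for ranking, so it could not be listed. Of these UMIs, 2 and 8 lay in the rich cells, at 49.6 and 32.3 CPM. Lyve1 was at 0 in the rich cells of Monocytes2.

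**Figure D5:**
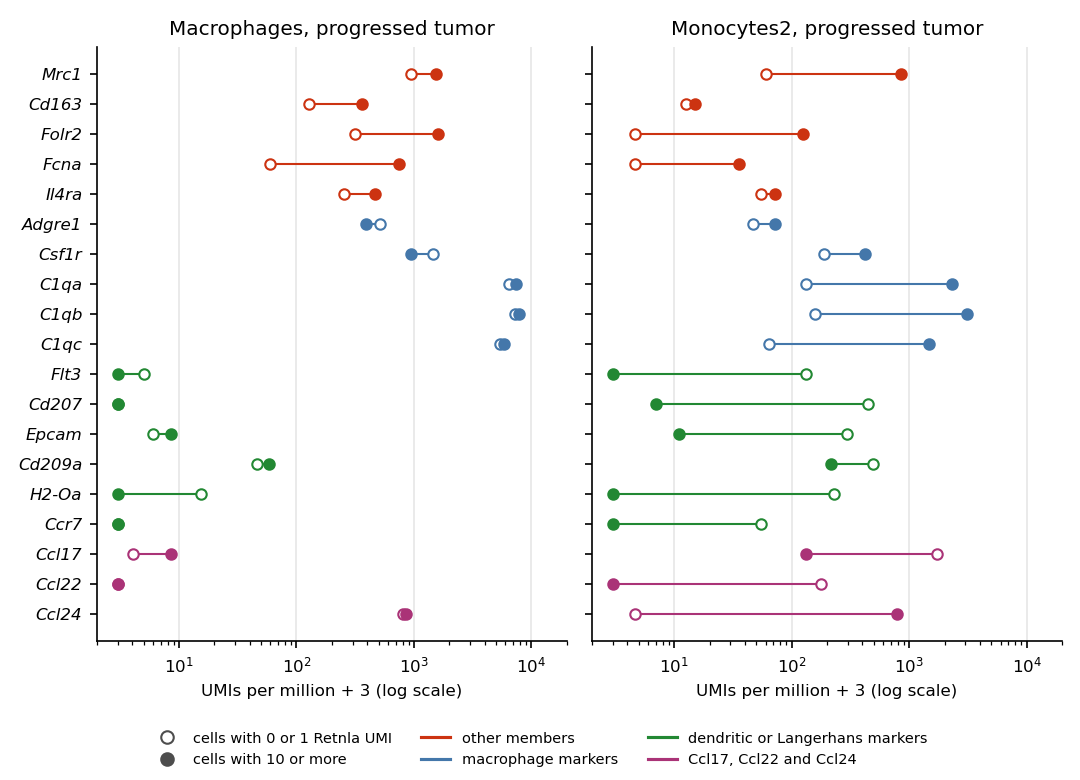
Levels in UMIs per 1000000 plus 3, on a log axis, of other members, macrophage markers, dendritic or Langerhans markers and 3 chemokines in progressed cells with 0 or 1 Retnla UMI (open) and with 10 or more (filled). In Macrophages the markers of cell type lie close together, while in Monocytes2 C1qb (3093 against 156) and Cd207 (4.03 against 444) lie far apart.

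The genes around the members were described from lists, chosen with earlier results of these data known, and each is given as a count past 2-fold among those with 20 UMIs, beside the shares of all features above. Of the tissue-resident type genes in Macrophages, 0 of 15 were higher and 5 lower in the regressed tumor than in the untreated (Lyve1, F13a1, Cd209f, Cd209g and Ednrb; list median log2 -0.56, all features -0.05), and 6 of 16 were higher and 0 lower in the progressed than in the regressed (Lyve1, Cd209f, Siglec1, Ninj1, Ednrb and Cd36; median 0.93, all features -0.06). Lyve1 was 205, 37.1 and 145 CPM. Selenop, the plasma selenoprotein and the most abundant of the list, was 3264, 2379 and 3203. Progressed over untreated, 2 of 17 were higher (Siglec1 and Cd36) and 0 lower, with a median of 0.01, so that this list was nearly level between those tumors.

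Other genes of alternative activation took a similar course. Regressed over untreated, 0 of 10 were higher and 3 lower (Clec10a, Cd209d and Tgm2; median -0.57), and progressed over regressed 5 of 10 were higher and 0 lower (Ccl24, Clec10a, Clec7a, Cd209d and Tgm2; median 0.91). Progressed over untreated, 3 of 13 were higher (Ccl24, Mgl2 and Ear2) and 1 lower (Cd209d). Ccl24 was 254, 145 and 759 CPM, and Clec10a, the lectin CD301, was 263, 100.2 and 331. Between the regressed tumor and the others, classical activation genes were not opposite to these. Regressed over untreated, 0 of 9 were higher and 4 lower (Il1b, Ptgs2, Cd38 and Socs3, median -0.55). Progressed over regressed, 6 of 9 were higher and 0 lower (Il1b, Cxcl9, Cxcl10, Irf5, Cd38 and Socs3, median 1.24). Progressed over untreated, 3 of 12 were higher (Cxcl9, Cxcl10 and Cd86) and 2 lower (Il1b and Ptgs2). Within tumors, the list sums of Retnla-rich Macrophages and those with 0 or 1 Retnla UMI did differ in opposite directions. Classical genes had 1477 against 2357 CPM untreated and 1089 against 2178 progressed, the other list 4150 against 776 and 2605 against 1804. Il1b was 913, 145 and 333 CPM and Cxcl9, a chemokine induced by interferon gamma, was 0, 3.71 and 91.7. Regressed Macrophages had a median depth of 1388 UMIs against 3429 and 3450, and they held transcripts of other cells, with sums of 1845 CPM for 4 haemoglobin genes and 635 for 7 mast cell markers against 43.8 and 24.8 in untreated Macrophages. The part of depth and of these transcripts in the lists was not tested.

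Upstream of the members, the receptor and its signalling genes were counted in the same way. Over all features, 10.7% were lower in regressed over untreated Macrophages, with a median of -0.05. Of 9 with enough counts in regressed over untreated Macrophages, 0 were higher and 2 lower (Il4ra and Jak3; median -0.42), of 9 in progressed over regressed 1 was higher (Il4ra; median 0.37), and of 10 in progressed over untreated 1 was lower (Irs2). Stat6 was 63.6, 33.4 and 56.9 CPM on 77, 9 and 72 UMIs. Among transcription factors linked to alternative activation, Klf4 was 186, 85.4 and 165 CPM and Kdm6b, a histone demethylase, was 151, 37.1 and 126 CPM in Macrophages, both lowest in the regressed tumor. Cebpb had 226, 367 and 191 in Macrophages but 232, 1989 and 233 in Monocytes1.

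Few UMIs of the ligands lay in Macrophages, with 0, 0 and 2 for Il4 and 0, 1 and 0 for Il13. Il4 was found in Mastcells at 99.3, 194 and 286 CPM (6, 64 and 85 UMIs), and these were 64 of 92 and 85 of 91 Il4 UMIs in the regressed and progressed tumors. Of the remaining regressed ones, Neutrophils held 12, stroma 6, T and NK cells 5 and Monocytes1 3. Il13 was found in T and NK cells at 81.6, 12.3 and 168 CPM (13, 9 and 30 UMIs) and in Mastcells with 2, 1 and 30 UMIs. Both ligands were present in the regressed tumor, Il4 at a higher level over all cells (7.41 against 0.360 and 3.38 CPM), where Retnla was nearly missing. Mastcells numbered 16, 106 and 85 in the 3 tumors, so these sums also follow how many of them were captured.

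The same lists differed in Monocytes1. Of the other alternative activation genes, 4 of 10 were higher and 1 lower in the regressed over the untreated tumor (Ccl24, Clec10a, Cd209a and Ear2; Ccl17 lower), and 1 of 9 higher and 6 lower in the progressed over the regressed (Tgm2 higher; Ccl24, Clec10a, Cd209a, Msr1, Il1rn and Matk lower; median -1.36, all features -0.20). Classical genes were 0 of 11 higher and 5 lower in the regressed over the untreated (Il1b, Il6, Ptgs2, Cd38 and Socs3). Msr1, a scavenger receptor, was 164, 244 and 117 CPM, and Il1rn, the IL-1 receptor antagonist, was 206, 204 and 40.2. Arginine handling genes in Monocytes1 had 0 of 8 past 2-fold in the regressed over the untreated tumor and 2 of 6 lower in the progressed over the regressed (Srm and Ddah2), and 1 of 6 lower in the progressed over the untreated (Srm). In Macrophages 1 of 5 was lower in the regressed tumor than in the untreated (Srm), 2 of 6 were higher in the progressed than in the regressed (Srm and Gatm) and 2 of 7 higher in the progressed than in the untreated (Slc7a1 and Gatm), with Gatm at 79.3, 111 and 229 CPM.

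The other lists in Monocytes1 are given by their counts. The receptor and signalling genes had 0 of 9, 0 of 7 and, for progressed over untreated, 1 of 9 past 2-fold (Jak3 lower). The tissue-resident type genes had 0 of 9 past 2-fold for regressed over untreated, 3 of 9 lower for progressed over regressed (Stab1, Cd36 and Wwp1; median -0.70, where 19.0% of all features were lower and their median was -0.20), and 1 higher (Igf1) and 1 lower (Cd36) of 9 for progressed over untreated.

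The nearest relatives of the members were mostly elsewhere. Retnlg, the resistin-like gamma gene, was a neutrophil gene, at 16803 and 2948 CPM in untreated and regressed Neutrophils, and its 102, 14.8 and 0 CPM in Macrophages are part of the neutrophil marker sum given above. Arg2 was 57.8, 20.6 and 8.04 CPM in Monocytes1. Chil4, a close copy of Chil3, had 6, 5 and 1 UMIs in Monocytes1. The counting kept uniquely mapped reads in sense orientation, so reads shared by such copies were not counted for either gene, and levels of Chil3 and Retnla are uncertain to that extent.

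The genes whose pattern was most like a member were found over the 53 combinations of cluster and tumor with at least 20 cells, by Pearson's r of log2(CPM + 10) among 15952 features with at least 50 UMIs. For Retnla these were Timd4 (r = 0.80), Mucl1 (0.79), Aldh1a2 (0.75), Gm13479 (0.74) and Slc13a3 (0.73), of which Timd4 is a phosphatidylserine receptor of resident macrophages. For Mrc1 they were C1qc (0.94), Fcrls (0.91), C1qb (0.88), Kcnk13 (0.88) and Pf4 (0.88). For Arg1 they were Ms4a4a (0.66), Msr1 (0.63), Gm32409 (0.62), 1700012B09Rik (0.59) and an unnamed feature (0.58). The points share 3 libraries and their depths, and r is given as a description. Timd4 had 24, 2 and 65 UMIs in all, of which Monocytes2 held 10, 1 and 50 and Macrophages 13, 0 and 12. The likeness is one between combinations of cluster and tumor. Timd4 was at 0 in the 8 untreated and 39 progressed Retnla-rich cells of Monocytes2. In Macrophages, by contrast, rich cells held 79.7 against 1.92 CPM (11 and 2 UMIs, untreated) and 33.3 against 4.09 CPM (6 and 4 UMIs, progressed). With a pseudocount of 1 in place of 10, 3 of the 5 genes for Retnla and 1 of 5 each for Mrc1 and Arg1 stayed in the list. Xist was then the gene most like Retnla (r = 0.72), above Mucl1 (0.69) and Timd4 (0.63). Like Retnla, Xist was nearly missing from the regressed tumor. The part of the difference between tumors in this likeness was not tested.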

How the data were processed

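Droplet-based 3' single-cell libraries of 3 melanomas, 1 per group, were used as deposited. The authors aligned reads to GRCm38 (mm10) with GSNAP and counted unique molecular identifiers per gene and cell; the submitters' processing notes also name Seurat 2.2.0, and cluster names are those deposited with the cells. The UMI counts deposited by the authors are whole numbers and not normalized. The tables' sums exceed the deposited totals per cell by 5.02%, and the sums were used. No doublet caller was run here, the gate of the sorted cells is not given in the sources used here, and no cell was left out. Clusters were made by the authors from these same counts.

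Counts of a cluster were summed per tumor and divided by the cluster's total, per 1000000 UMIs. Levels have exact Poisson intervals, shares exact Clopper-Pearson intervals and ratios exact conditional binomial intervals, all at 95%, and 0 UMIs were set to a floor of 3. Shares were computed unthinned and after thinning to 1000 UMIs per cell. No test was made, since each group holds 1 tumor. The members and lists were chosen with earlier results of these data known. Named genes were the 9 members, up to 5 genes of each list with at least 20 UMIs in the order of UMIs in the cluster, beside those named because they passed 2-fold, and the 5 genes most like Retnla, Mrc1 and Arg1. Leading genes of Retnla-rich cells and the ligands were named after their values were seen. Alternatives were TMM scaling (edgeR 4.0.16 in R 4.3.3), other minimum counts, thinning to 2000 UMIs, equal weight per cell, leaving out the 5% of cells with most UMIs or those under 1000, other totals, subtracting the stromal level, and pooled clusters. Scripts ran in Python 3.11.15 with numpy 2.4.6, scipy 1.17.1 and pandas 2.3.3, and were tested on simulated data. Some items, among them part of the genotype and the counts of the transcription factor list, are not reported here.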

Additional observations from a re-analysis of the deposited data

Results flagged for a closer look

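Between the 3 myeloid clusters, some members had log2 ratios of opposite sign for the same pair of tumors, each with a counting interval that did not hold 0. With 1 tumor per group, none of these differences was tested. The Retnla progressed over untreated log2 ratio was 0.23 in Macrophages and 2.52 in Monocytes2 but -1.08 in Monocytes1. The Monocytes1 value rests on 13 progressed UMIs and on 3 untreated Retnla-rich cells that held 79.0% of the cluster's untreated Retnla. Without Retnla-rich cells, Monocytes1 held 23.2 CPM in the untreated tumor (26 UMIs) and 52.3 in the progressed, so the order was the other way.

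Mrc1 was regressed over untreated 1.64 in Monocytes1 and -1.33 in Monocytes2, progressed over regressed -5.25 and 2.50, and progressed over untreated -3.61 and 1.17. The progressed Monocytes1 value comes from 1 UMI in 53 cells.

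Chil3 was regressed over untreated -1.60 in Macrophages and -1.73 in Monocytes2 but 0.21 in Monocytes1, the first pair resting on 5 and 4 regressed UMIs.

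Il4ra was progressed over regressed 1.31 in Macrophages and -0.70 in Monocytes2, and progressed over untreated 0.31 and -0.96.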

How the results depend on the processing

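The Retnla ratios of the regressed tumor to the others kept their direction under all alternatives run, from -6.44 to -11.49 for regressed over untreated and from 6.45 to 13.55 for progressed over regressed, and 24 of 31 alternatives for the 3 Retnla ratios stayed within the counting interval. The 7 that did not all concern progressed over untreated in Macrophages, a log2 ratio of 0.23: 0.34 with TMM scaling, 0.013 thinned to 1000 UMIs, 0.088 with equal weight per cell, 0.46 without the 5% of cells with most UMIs, 0.88 with Macrophages and Monocytes1 pooled, and, chosen after seeing the data, 2.06 with all 3 clusters pooled and 1.78 without Retnla-rich cells. The sign was the same in each, while the size rests on few cells and on which clusters are joined. The cause was not tested. For the other members, 157 of 187 alternatives stayed within the interval, 26 moved and 4 reversed, the latter all with Macrophages and Monocytes1 pooled: Chil3 regressed over untreated 0.75, Cd163 regressed over untreated -0.55 and progressed over regressed 1.01, and Fcna progressed over untreated 0.16. Of 48 alternatives for shares of cells, unthinned or thinned to 2000 UMIs, 31 moved and 17 stayed within the interval. The minimum of UMIs moved the percent of features past 2-fold. With 1 UMI it was in Macrophages 16.4 higher (regressed over untreated), 18.6 lower (progressed over regressed), and 5.69 higher and 9.29 lower (progressed over untreated), and in Monocytes1 7.63 higher (progressed over regressed), and 12.1 higher and 7.12 lower (progressed over untreated). With 50 UMIs it was in Macrophages 4.12 higher, 4.37 lower, and 2.30 and 2.79 for the same comparisons, and in Monocytes1 12 lower (progressed over regressed) and 7.15 lower (progressed over untreated). TMM gave 13.5 higher and 4.88 lower for progressed over regressed Macrophages, and 7.78 and 5.68 for regressed over untreated Monocytes1. Member counts that moved were, with 1 UMI, 2 lower in progressed over regressed Macrophages, 3 higher and 2 lower in regressed over untreated Monocytes1 and 1 higher in progressed over regressed Monocytes1, and with 50 UMIs 0 lower in progressed over regressed and 1 lower in progressed over untreated Macrophages. No paired analysis was possible because each group holds 1 tumor, and for the same reason no replicate could be left out. Regressed Macrophages, with 143 cells and a median of 1388 UMIs, limit every value set against them.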
